A study of Mus musculus with 2 samples.

Results

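This report describes 8 genes of the canonical Wnt pathway in pancreatic islet cells, namely Ctnnb1, Tcf7l2, Tcf7l1, Lef1, Axin1, Axin2, Apc and Gsk3b, out of 22383 features counted. The genes were taken by symbol, and each symbol was found in the feature list. Islet cells of mice on a C57BL/6N background, aged 5 weeks, were profiled by droplet single-cell RNA-sequencing, in which a unique molecular identifier (UMI) tags each captured transcript. TBL/RβKO mice carried Cre recombinase in the endogenous Ins1 gene together with loxP-flanked Tbl1x and Tbl1xr1, and Cre-negative littermates, whose genotype is labelled wildtype, were the control. Each group was 1 library of 150 islets pooled from 4 mice and cultured overnight. The Cre is active where Ins1 is or has been transcribed, so β-cells are the intended target and other islet cells of the same library are not. With 1 library per group no difference could be tested, every value describes these 2 libraries, and each interval (95%) covers counting error alone.

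β-catenin, encoded by Ctnnb1, has a structural role at cadherin junctions and a transcriptional role in the nucleus. Without a Wnt signal, a complex built on the axins and APC holds β-catenin while GSK3β phosphorylates it, and the phosphorylated protein is ubiquitinated and degraded. When Wnt ligands occupy their receptors this stops, and β-catenin enters the nucleus, binds TCF/LEF proteins and displaces repressors from their target genes. TBL1X and TBL1XR1 are subunits of the NCoR/SMRT co-repressor complexes and are also known to bind β-catenin at target genes. Much of this control acts on protein and cannot be seen in transcript counts. TCF7L2 is the TCF protein best known in islets, because common variants near the human gene are associated with type 2 diabetes.

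The sequence that ties Gsk3b to Ctnnb1 is a short run of codons in Ctnnb1 for the phosphorylated motif that the ubiquitin ligase adaptors Btrc and Fbxw11 recognise. It is shown because the destruction complex acts on β-catenin through it. A search of the translated canonical transcript found the motif once, at codons 32 to 37 of 781. They lie in coding exon sequence, in exon 3 of 15, at chr9:120779668-120779685 on the plus strand (GRCm39, GENCODE M39). The stretch printed is chr9:120779647-120779706, with the motif codons in capitals.
Ctnnb1: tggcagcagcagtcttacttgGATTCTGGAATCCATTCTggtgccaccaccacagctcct

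TCF/LEF proteins bind short sites, and promoter windows of the 8 genes were therefore searched on both strands for CTTTGAA and for the same letters with AT, TA or TT as the last pair. RefSeq windows of 300 bases (250 before to 50 after an annotated start, GRCm38.p6) matched 6 of the 8 genes with 11 windows, and 2 windows (18.2%) held a site, against 16.9% of 32851 windows in all. A gene can have more than 1 window, and Tcf7l2 had 2 and Lef1 4. One lay in a window of Tcf7l2, within the printed stretch chr19:55895287-55895333, and began 14 bases before that window's start site. The other lay in a window of Lef1, within the printed stretch chr3:131156127-131156173, and began 147 bases before that window's start site, on the reverse strand. Whether these start sites are the main ones of the genes or lie inside them was not examined, so neither site is placed at a main promoter. Both stretches are printed as the plus strand of the chromosome reads, with the site in capitals.
Tcf7l2: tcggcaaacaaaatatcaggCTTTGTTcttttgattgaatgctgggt
Lef1: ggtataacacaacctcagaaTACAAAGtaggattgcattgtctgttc
The windows of Ctnnb1, Tcf7l1, Axin2 and Gsk3b held none of these letters, which says nothing of binding by a TCF protein. The share among these windows was close to that of all windows.

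On GRCm39 the genes lie on separate chromosomes. Ctnnb1 spans chr9:120757422-120789579, Tcf7l2 chr19:55730188-55922091, Lef1 chr3:130903919-131018005, Axin1 chr17:26350235-26414789, Axin2 chr11:108811169-108841609 and Gsk3b chr16:37909363-38066446, all on the plus strand. Tcf7l1 spans chr6:72603354-72766589 on the minus strand, and Apc lies on chromosome 18.

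The control library held 7067 barcodes and 241434108 UMIs, the library labelled TBL/RβKO 5833 barcodes and 185062206 UMIs, and they shared 14 barcode sequences, of which 3 were kept in the same class in both. Barcodes with over 2500 detected genes and under 10% mitochondrial UMIs were kept, and each took the class of its largest hormone (insulin for β, Gcg for α, Sst for δ, Ppy for PP) when that reached 100 UMIs per 10000. The classes of the control and of the library labelled TBL/RβKO held 2877 and 1338 β barcodes, 1284 and 1546 α, 223 and 374 δ, and 259 and 495 PP barcodes. A further 104 and 426 barcodes had no class. All 9 β-cell markers reached 10 CPM (UMIs per 1000000 UMIs) in both β classes, though not at the same level. That mark does not set the classes apart, because 8 of the 9 reached it in the control α, δ and PP classes too. Ins1 and Ins2, which are among the 9, also define the β class. A class is a range of hormone content and not a cell type, since 16.3% and 60.8% of β barcodes held a second hormone at the same threshold and 49.5% and 76.7% had 6000 genes or more.

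The targeted genes went against the label, so the group is called the library labelled TBL/RβKO throughout. The control held 0 Cre UMIs and its counterpart 3247, where 20.5% of β barcodes and 0.712% of α barcodes held one. Tbl1x stood at 96.95 CPM in the control β class and at 350.8 CPM in the other, and Tbl1xr1 at 20.04 and 128.6 CPM. Both transcripts were thus higher where a deletion is labelled. The kit used reads transcripts mostly at their 3′ end, and which exons lie between the loxP sites is not given in the sources used here. If those exons lie outside the part read, these UMIs do not check the deletion, and a remnant transcript and an intact one cannot be told apart.

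Hormone transcripts made up 50.8% of control β-class UMIs but 31.1% of those labelled TBL/RβKO, which lifts every other gene there in CPM. Ratios between libraries were therefore centred on the median log2 ratio of all genes with 50 UMIs or more over both libraries, called measured genes here. That median was 0.31 in the β, 0.10 in the α, 0.02 in the δ and 0.25 in the PP class. A gene is called higher or lower past 2-fold, a centred log2 ratio of 1. Of the β-cell markers, Ins1 (-2.23), Mafa (-2.75), Slc2a2 (-2.82) and Nkx6-1 (-1.02) were called lower in the β class, and the PP markers Ppy (2.09) and Pyy (2.81) higher. No member was called in the β class, where 7 of the 8 were measured, while 12.0% of 13944 measured genes were called. None of 7 was called in the α class (2.8% of all measured genes) and none of 6 in the δ class (2.01%). In the PP class 1 of 7 was called, Tcf7l1, beside 7.74% of all measured genes. Nothing can be read from that count, because Tcf7l1 reached the 50 UMIs required only through the library in which it was higher. The members' median centred log2 ratio was 0.13 in the β, 0.12 in the α, 0.02 in the δ and 0.44 in the PP class, where that of all measured genes is 0 by construction.

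**Figure D1:**
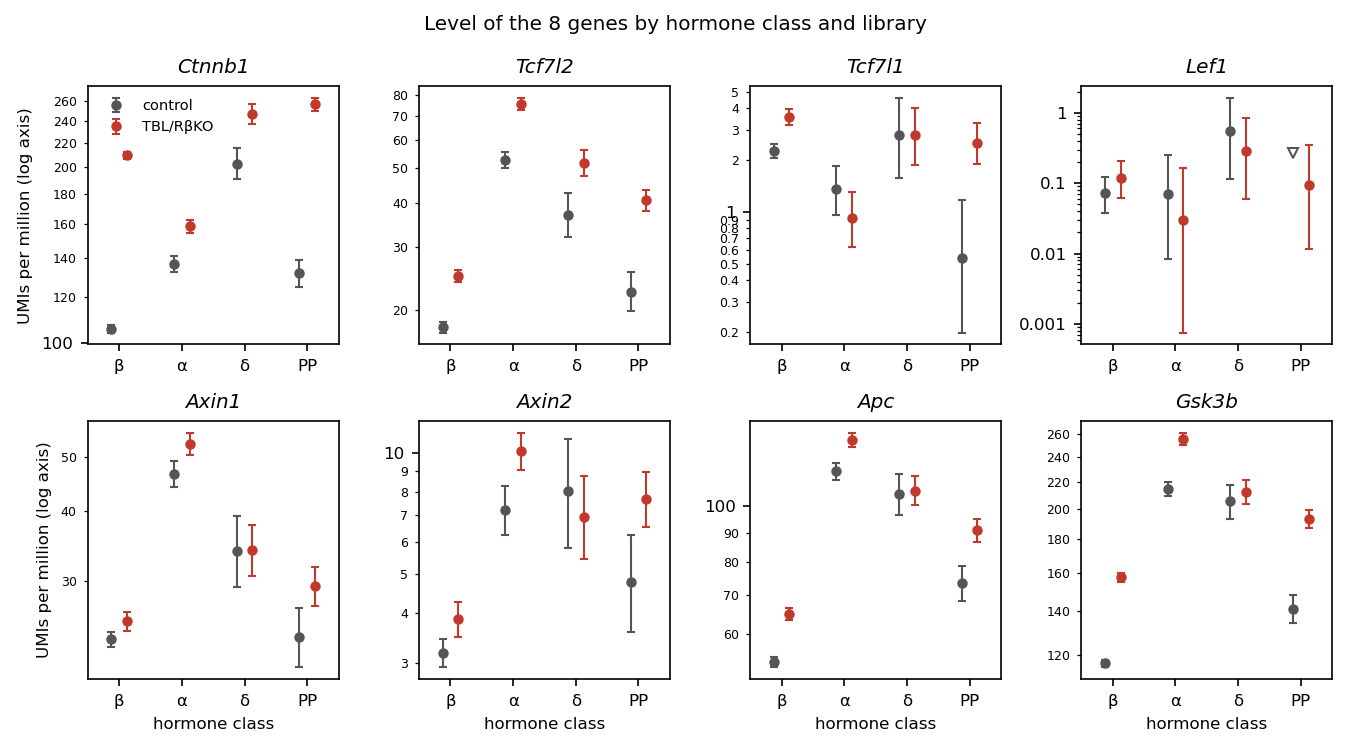
Level of the 8 genes in each hormone class (CPM, log axis, a scale of its own per gene), in the control (grey) and the library labelled TBL/RβKO (red), each point 1 library with its exact Poisson interval. The open triangle is the limit that 0 UMIs allow. Ctnnb1 stood apart most in the β class (105.7 and 209.9) and the PP class (131.6 and 256.5), while Lef1 lay near 0 in every class.

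Ctnnb1, the signal carrier of the pathway, had the largest centred ratio among the members of the β class. Its level was 105.7 CPM (interval 104.2 to 107.2) in the control β class and 209.9 CPM (207.1 to 212.8) in the library labelled TBL/RβKO. In the α class it was 136.4 and 158.5 CPM, in the δ class 203.1 and 247.1 CPM, and in the PP class 131.6 and 256.5 CPM. The centred log2 ratio was 0.68 (0.65 to 0.71) in the β class, 0.12 in the α, 0.27 in the δ and 0.72 (0.63 to 0.80) in the PP class. None reached 2-fold. Of all measured genes 87.4% lay below Ctnnb1 in the β class, 71.8% in the α, 86.0% in the δ and 91.3% in the PP class, so its rank in the δ class was close to that in the β class. All genes spread more in the β and PP classes, with upper quartiles of 0.29 and 0.28 against 0.14 in the α and 0.15 in the δ class. Without barcodes that held a second hormone the β-class value was 0.46 (0.42 to 0.50) and the PP-class value 0.54 (0.40 to 0.69), and with barcodes under 6000 genes 0.54 and 0.52. The β-class value exceeded the α-class value by 0.56 (0.50 to 0.63) and the δ-class value by 0.42 (0.31 to 0.52), and its difference from the PP-class value was -0.03 (-0.12 to 0.05). By centred log2 ratio, though not by rank, Ctnnb1 stood apart from the δ class in the classes in which Tbl1x and Tbl1xr1 were called higher. The centred log2 ratio of Tbl1x was 1.55 in the β and 1.58 in the PP class against 0.23 in the α and 0.41 in the δ class, and that of Tbl1xr1 was 2.37, 1.67, 0.51 and 0.72.

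In CPM of non-hormone UMIs, in which insulin content does not enter, Ctnnb1 stood at 214.6 in the control β class and 304.5 in the other. On that scale its order over the control classes ran from α (173.5) through PP (203.5) and β (214.6) to δ (234.6), and the PP and β intervals overlapped (193.2 to 214.2 and 211.6 to 217.6). In the library labelled TBL/RβKO the order was α (189.3), δ (279.4), β (304.5) and PP (324.8), so δ no longer stood highest. The share of β barcodes with a Ctnnb1 UMI was 96.2% and 98.7%. With each barcode thinned to 5000 UMIs it was 41.3% (39.5 to 43.1) in the control and 60.2% (57.5 to 62.8) in the other, and 63.6% and 72.3% when the 5000 UMIs were drawn without the hormones.

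Tcf7l2, the TCF gene best known in islets, had its lowest CPM in the β class of both libraries. Its level was 17.89 and 24.94 CPM in the β class, 52.8 and 75.83 CPM in the α class, 36.94 and 51.83 CPM in the δ class, and 22.52 and 40.72 CPM in the PP class, control first. In CPM of non-hormone UMIs, Tcf7l2 in the control β class was 0.541 times that in the α class, and in the library labelled TBL/RβKO 0.399 times. The control PP and β classes could not be told apart on that scale, at 34.82 (30.64 to 39.42) and 36.33 (35.1 to 37.6). The centred log2 ratio was 0.17 (0.10 to 0.25) in the β class, 0.42 in the α, 0.47 in the δ and 0.61 in the PP class. The β-class ratio was the smallest of the 4, and its difference from the α class was -0.25 (-0.37 to -0.13). Of all measured genes 66.5% lay below Tcf7l2 in the β class, 93.1% in the α, 94.4% in the δ and 89.4% in the PP class. Without hormones the β-class levels of the libraries were 36.33 and 36.17 CPM, with overlapping intervals, and without barcodes that held a second hormone the centred value was -0.03 (-0.16 to 0.09).

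Tcf7l1, which encodes a TCF protein known mainly as a repressor, was sparse in endocrine barcodes. It gave 412 and 361 UMIs in the β class (2.262 and 3.575 CPM), 39 and 31 in the α class (1.355 and 0.9241 CPM), 15 and 29 in the δ class (2.798 and 2.794 CPM), and 6 and 53 in the PP class (0.5405 and 2.527 CPM). The centred log2 ratio was 0.35 (0.14 to 0.56) in the β class, -0.65 (-1.38 to 0.07) in the α class and 1.98 (0.76 to 3.49) in the PP class, the last the single call among the members. It fell under the measured limit in the δ class, and the PP-class call rests on 6 control UMIs and on a limit that the 53 UMIs of the other library alone passed. Without PP barcodes that held a second hormone, with barcodes under 6000 genes, or at a hormone threshold of 500 per 10000, Tcf7l1 had too few UMIs to be measured there. With barcodes under 6000 genes its β-class value was 1.08 (0.59 to 1.55), past the limit of a call.

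Lef1 was hardly detected. It gave 13 and 12 UMIs in the β class, 2 and 1 in the α class, 3 and 3 in the δ class, and 0 and 2 in the PP class, all under the 50 UMIs required. In the control PP class, 0 UMIs in 259 barcodes allow up to 0.2702 CPM (3 counts). A difference in Lef1 between the libraries was not detectable at this depth in any endocrine class.

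**Figure D2:**
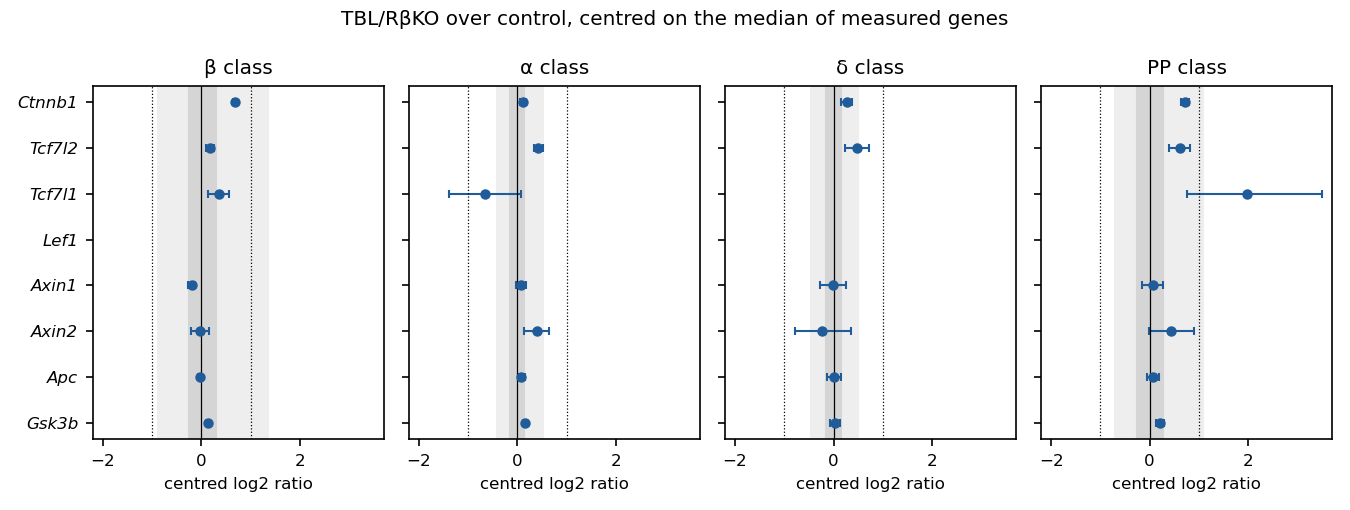
Centred log2 ratio of the library labelled TBL/RβKO over the control for each measured member, by class, with counting intervals. The dark and light grey bands hold the middle 50% and 90% of all measured genes of the class, and dotted lines mark 2-fold. Ctnnb1 lay outside the dark band in the β (0.68), δ (0.27) and PP (0.72) classes, inside the light one. Other members lay outside the dark band too, Tcf7l2 in the α (0.42), δ (0.47) and PP (0.61) classes among them. Only Tcf7l1 in the PP class (1.98) lay past 2-fold.

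The scaffold genes of the destruction complex differed little once centred. Axin1 stood at 23.58 and 25.41 CPM in the β class, 46.65 and 52.79 CPM in the α class, 33.95 and 34.1 CPM in the δ class, and 23.78 and 29.37 CPM in the PP class. Its centred log2 ratio of -0.20 (-0.27 to -0.13) in the β class was the lowest of the members there, and its values in the other classes lay between -0.01 and 0.08. Apc, the scaffold whose loss stabilises β-catenin in colon tumours, stood at 53.52 and 65.03 CPM in the β class, 115.1 and 130.6 CPM in the α class, 105.0 and 106.6 CPM in the δ class, and 73.5 and 90.92 CPM in the PP class. Its centred values ran from -0.03 to 0.08 over the 4 classes. In both libraries the α class held the highest Axin1 and Apc level, and without hormones the control β class was at 0.807 times the α class for Axin1 and at 0.742 times for Apc.

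Gsk3b, the kinase of the complex, stood at 116.5 and 157.5 CPM in the β class, 214.8 and 256.3 CPM in the α class, 205.6 and 212.4 CPM in the δ class, and 140.9 and 193.2 CPM in the PP class. The centred log2 ratio was 0.13 (0.10 to 0.16), 0.15, 0.03 and 0.21 in the 4 classes. Without hormones Gsk3b spanned the narrowest relative range of the members with over 50 UMIs in every endocrine class, from 217.8 CPM in the control PP class to 305.9 in the α class of the library labelled TBL/RβKO.

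Axin2 has a double role, as a scaffold of the complex and as a widely used target gene by which active β-catenin signalling is read. It stood at 3.184 CPM (2.93 to 3.454) in the control β class and 3.852 CPM (3.479 to 4.255) in the other, with a centred log2 ratio of -0.03 (-0.22 to 0.15). In the α class it was 7.19 and 10.08 CPM (centred 0.39, 0.13 to 0.64), in the δ class 8.021 and 6.936 CPM (-0.23, -0.79 to 0.35), and in the PP class 4.774 and 7.676 CPM (0.44, -0.02 to 0.91). The α class was the one class whose Axin2 interval did not reach 0. A UMI of Axin2 was seen in 17.5% and 22.3% of β barcodes, and in 1.63% and 3.14% after thinning to 5000 UMIs. With the hormones left out of the draw the order was the opposite, at 3.51% and 2.69%, so no direction is read from these shares, which lie close to the level of single UMIs.

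Within the β class the barcodes were divided by insulin content, because the insulin share of UMIs differed between the libraries. Under 10% insulin lay 163 control barcodes and 243 of the library labelled TBL/RβKO, from 10 to 30% lay 152 and 574, and over 30% lay 2562 and 521. In CPM of non-hormone UMIs, Ctnnb1 in the control was 189.9, 216.6 and 215.0 from the lowest to the highest insulin bin, and in the library labelled TBL/RβKO 372.5, 324.0 and 239.2. Ctnnb1 was thus nearly level over the control bins and graded in the other library, where the lowest bin exceeded the highest by 0.64 on the log2 scale (0.58 to 0.69). Of 12101 genes measured in that comparison 84.2% lay below Ctnnb1, and in the control the same difference was -0.18 (-0.33 to -0.03), with 38.1% below. Between the libraries and centred within each bin, the log2 ratio of Ctnnb1 was 1.14 (0.99 to 1.30) under 10% insulin, 0.87 (0.79 to 0.94) from 10 to 30% and 0.36 (0.32 to 0.40) over 30%. Tbl1x was higher in the library labelled TBL/RβKO at each insulin content too, by 1.45, 1.52 and 1.31, and so differed less between the bins.

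Tcf7l2 was higher at low insulin in both libraries, at 92.44, 49.6 and 33.69 CPM of non-hormone UMIs in the control and 52.8, 35.58 and 27.83 in the other. At every insulin content its level was lower in the library labelled TBL/RβKO, with centred log2 ratios of -0.64 (-0.87 to -0.39), -0.20 (-0.36 to -0.02) and -0.07 (-0.19 to 0.06). The whole-class value of 0.17 therefore had the opposite sign to each of its bins, and the libraries filled the bins in different shares, with 5.67% of control β barcodes and 18.2% of the others under 10% insulin. The centred values of Axin1 and Apc lay between -0.27 and -0.15 at each insulin content. For Axin1 the interval stayed below 0 over 30% insulin (-0.37 to -0.15) but reached past it in the lower bins, and for Apc it reached past 0 under 10% insulin (-0.35 to 0.02). Gsk3b lay between 0.03 and 0.14.

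Axin2 was sparse in these bins. In the library labelled TBL/RβKO it went from 8.296 CPM of non-hormone UMIs under 10% insulin to 5.88 and 3.677 in the higher bins, on 107, 196 and 86 UMIs. The control gave 3.517, 9.416 and 6.262, on 7, 71 and 502 UMIs. The centred ratio was 1.41 (0.32 to 2.76) under 10% insulin, -0.40 (-0.79 to 0.02) from 10 to 30% and -0.56 (-0.91 to -0.23) over 30%. The value of the lowest bin rests on 7 control UMIs, and the gene reached 50 UMIs there only through the library in which it was higher, so no change of direction with insulin content is read from it. The control barcodes under 10% insulin were shallow, with a median of 9271 UMIs, and 44 control β barcodes against 3 of the others carried non-endocrine markers. The part of depth and of such barcodes in the bin values was not tested.

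**Figure D3:**
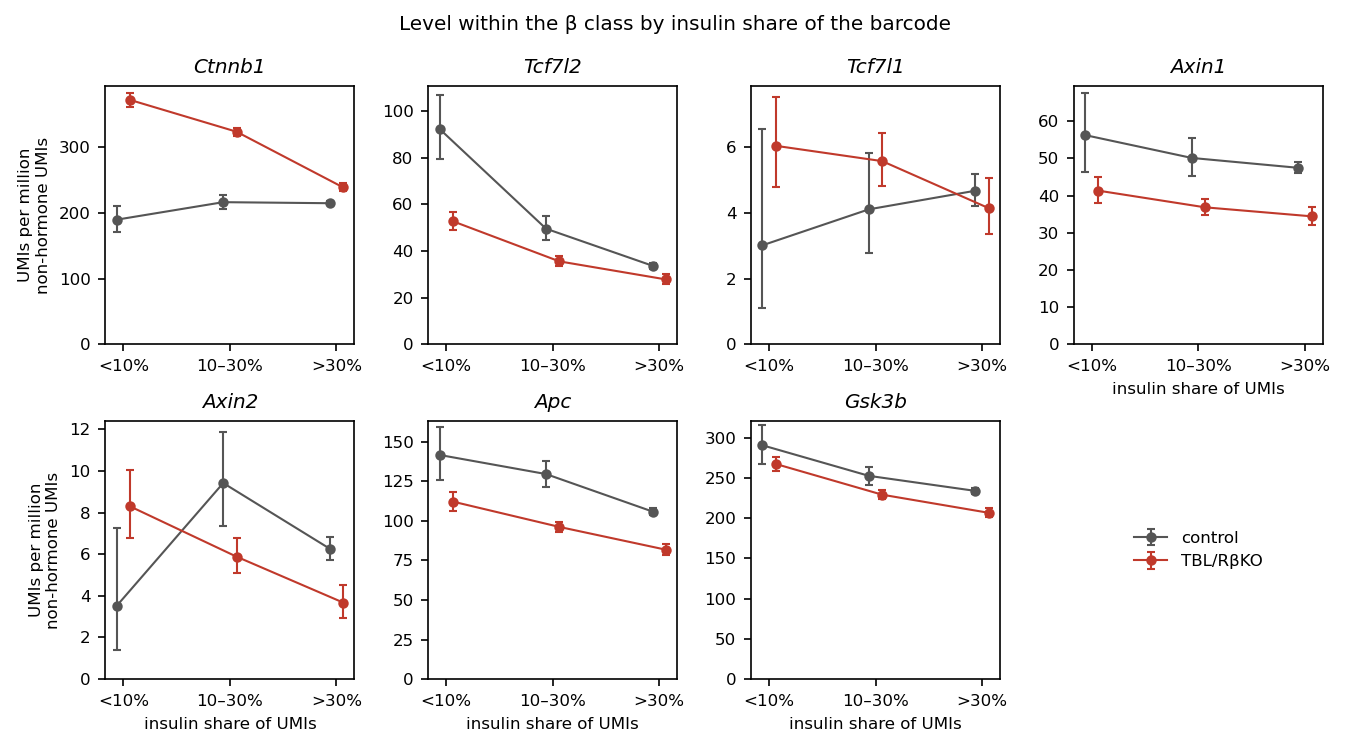
CPM of non-hormone UMIs for 7 members in β-class barcodes under 10%, from 10 to 30% and over 30% insulin, in the control (grey) and the library labelled TBL/RβKO (red), with exact Poisson intervals. Ctnnb1 ran from 372.5 to 239.2 in the library labelled TBL/RβKO against 189.9 to 215.0 in the control, while Tcf7l2, Axin1, Apc and Gsk3b were higher at low insulin in both libraries.

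In the PP class Ctnnb1 and Tcf7l1 were highest in barcodes that also held insulin. At 100 or more insulin UMIs per 10000 lay 156 of 495 PP barcodes of the library labelled TBL/RβKO, of which 11 held a Cre UMI, and 63 of 259 in the control. In these 156 barcodes Ctnnb1 stood at 383.0 CPM of non-hormone UMIs (369.5 to 396.9), against 271.4 (260.6 to 282.6) in the other 339. The corresponding control values were 219.4 (195.6 to 245.3) and 199.6 (188.3 to 211.5), whose intervals overlap. Tcf7l1 gave 43 of its 53 UMIs in the 156 barcodes with insulin, or 5.428 CPM (3.929 to 7.312), a level like that of the β class (5.185). The remaining 339 barcodes held 10 UMIs, or 1.157 CPM (0.5551 to 2.129), and the control PP barcodes 1 and 5. Tcf7l2 did not follow this split. Its intervals overlapped with and without insulin, at 48.31 to 58.61 and 45.4 to 54.95 CPM of non-hormone UMIs in the library labelled TBL/RβKO, and its control levels were 35.5 and 34.66 CPM. Barcodes that join 2 cells were not removed, and a median of 6952 genes was detected in the 156 barcodes against 5196 in the other 339, so a cell with both hormones and a pair of cells cannot be told apart.

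**Figure D4:**
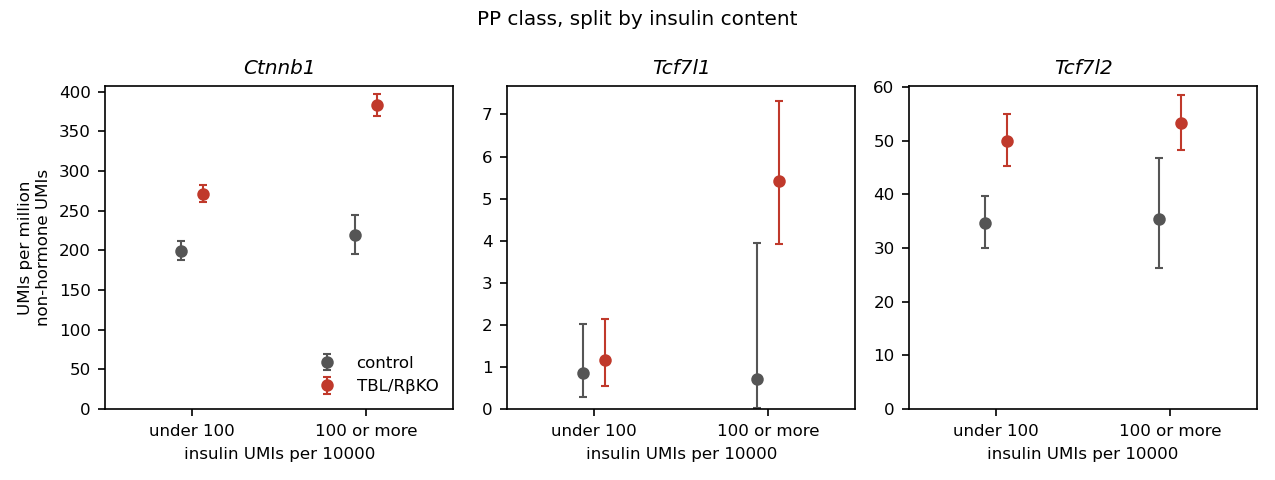
Ctnnb1, Tcf7l1 and Tcf7l2 in CPM of non-hormone UMIs in PP-class barcodes with under 100 and with 100 or more insulin UMIs per 10000, in the control (grey) and the library labelled TBL/RβKO (red), with exact Poisson intervals. In the barcodes of the library labelled TBL/RβKO with insulin, Ctnnb1 reached 383.0 and Tcf7l1 5.428, above the 3 other values of each gene, and Tcf7l2 differed little between the subsets. The control values of Tcf7l1 rest on 1 UMI with insulin and 5 without.

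Among barcodes with markers of other cell types, the members took different profiles. Barcodes with endothelial markers (56 and 37) held Ctnnb1 at 700.4 and 788.5 CPM, Tcf7l1 at 45.84 and 57.57 CPM and Lef1 at 23.22 and 17.59 CPM, each above every endocrine class. Macrophage-marker barcodes (64 and 54) held 0 UMIs of Tcf7l1 and of Lef1 in both libraries, while Tcf7l2 stood at 72.19 and 81.38 CPM. Barcodes with stromal markers (6 and 70) held Ctnnb1 at 116.3 and 178.3 CPM. The 43 barcodes with B-cell markers, all in the library labelled TBL/RβKO, held 1 UMI of Tcf7l2. Marker sums of other cells differed between the libraries in the β, α and PP classes. In the α class the ductal markers summed to 64.96 and 204.5 CPM and the stromal markers to 10.56 and 36.58 CPM. Macrophage markers fell from 64.37 to 21.66 CPM in the β class and from 57.02 to 22.12 CPM in the PP class. The PP markers fell in the PP class, from 410200 to 258600 CPM. In the β class the ductal markers summed to 25.03 CPM in the control and 213.6 in the other (1 and 2 of 3 at 10 CPM or more), with Krt19 at 5.52 and Spp1 at 2.35 as centred log2 ratios. The stromal markers summed to 1.762 and 21.56 CPM there (0 of 5 at 10 CPM in both), with Col1a1 at 4.84, and the PP markers to 7572 and 52810 CPM. In the PP class the stromal markers summed to 4.504 and 76.43 CPM (0 and 4 of 5 at 10 CPM), with 3 of the 5 at 0 in the control, and the ductal markers to 138.9 and 184.1 CPM. The part of ductal, stromal and PP-cell RNA in the Ctnnb1 difference was not tested. The markers by which non-endocrine barcodes were left out held no ductal gene. Endothelial marker genes summed to 14.45 and 11.47 CPM in the β classes and to 3938 and 641.8 CPM among the barcodes with no class. Leaving out the barcodes that carried non-endocrine markers took only 44 control β barcodes and 3 of the others, and the β-class value of Ctnnb1 was then 0.67. The part of endothelial RNA in the Ctnnb1 difference was not tested. Barcodes without a class had Ctnnb1 at 380.2 and 209.7 CPM, and 84 of 104 control barcodes there and 198 of 426 others carried non-endocrine markers.

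Free RNA in the droplets gives UMIs in cells that do not express a gene. From the insulin UMIs of barcodes with non-endocrine markers its share was put at 2.04% of control UMIs and at 0.856% of those labelled TBL/RβKO. The 54 to 64 macrophage-marker barcodes without a single UMI of Tcf7l1 or Lef1 allow up to 2.103 CPM in the control and 2.806 CPM in the other (3 counts), so the Tcf7l1 levels of the endocrine classes in CPM lay near what those barcodes could have shown. Subtracting the estimated free RNA left no member of the β class called.

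By the pattern of levels over 10 sums (5 classes, barcodes without a class included, in 2 libraries), the genes most like Ctnnb1 among 9249 were Zfhx3 (r = 0.986), Gclc (0.956) and Abcc3 (0.947), the correlation being Pearson's on log2(CPM + 1). Those most like Tcf7l2 were Cnot6, Ttc27 and Cept1 (0.988 to 0.985), most like Axin1 Arih1, Btaf1 and Cherp (0.99 to 0.986), most like Axin2 Rsph3b, Zfp438 and Catspere2 (0.986 to 0.983), most like Apc Rps6ka3, Son and Rab12 (0.99 to 0.989), and most like Gsk3b Phf14, Rps6ka3 and Kat6a (0.989 to 0.982). The sums share their libraries, their depth and the hormone content that sets all CPM values. Rps6ka3 was near both Apc and Gsk3b, whose levels ran in the same order over the control endocrine classes in CPM.

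The other genes of the pathway were taken from lists by role, 110 genes in all. In the β class 74 were measured, of which 9 were called higher and 4 lower, against 7.96% and 4.04% of all measured genes, and their median centred log2 ratio was 0.11. In the α class none of 67 was called (2.8% of all measured genes), in the δ class 1 of 61 (Rspo4, -1.07, beside 2.01%), and of 65 in the PP class 7 were called higher and 4 lower (beside 7.74% in both directions together), a count of 11 that came to 5 without second-hormone barcodes. The β-class calls included Tbl1xr1 (2.37) and Tbl1x (1.55), which the label targets.

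Among the ligand genes, Wnt4, which encodes a Wnt protein of islet cells, went from 183.6 to 83.16 CPM in the β class (33443 and 8397 UMIs, centred log2 ratio -1.45). Wnt5b went from 5.775 to 26.23 CPM (1.88). Rspo4, an R-spondin that enhances Wnt reception, went from 11.17 to 6.378 CPM (-1.12). Wls, the carrier needed to secrete Wnt proteins, went from 141.8 to 193.8 CPM and was not called (0.14). Wnt4 was called lower in the PP class as well (234.2 and 124.3 CPM, -1.16) and Wnt5b higher (12.25 and 29.51 CPM, 1.02). Over the alternatives these PP-class values ran from -1.19 to -0.70 for Wnt4 and from 0.22 to 1.27 for Wnt5b.

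Among receptors those with most UMIs, Lrp6 (37.99 and 56.1 CPM) and Ror2 (28.11 and 37.24 CPM), were within 2-fold at 0.25 and 0.10. The calls fell on sparse genes. Fzd1 gave 132 and 219 UMIs (1.27), Fzd4 gave 80 and 135 (1.30), and Lgr5, an R-spondin receptor and itself a known target gene, 16 and 54 (2.30). Over the alternatives that measured them Fzd1 ran from 0.82 to 1.58 and Fzd4 from 0.05 to 1.72, so neither call held throughout. Lgr5 passed the limit of 50 UMIs only through the library in which it was higher, so nothing is read from its call. Lrp5, the other co-receptor, was 0.89 in the β class and was called in the PP class at 1.90 (3.693 and 16.31 CPM, 41 and 342 UMIs). It too reached 50 UMIs there only through the library in which it was higher, so nothing is read from that call. The list of extracellular inhibitors also holds genes for inhibitors in the cell membrane, such as Znrf3. Of that list Wif1 was called (73 and 199 UMIs, 1.99). Those with most UMIs, Frzb (55.85 and 62.55 CPM, -0.14) and Znrf3 (32.62 and 39.32 CPM, -0.04), were not.

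None of the 13 other measured genes of the destruction complex was called in the β class, where their median was 0.10. Csnk1a1, the kinase that primes β-catenin for GSK3β, stood at 190.5 and 268.1 CPM (0.18) and Tnks2, which marks axins for degradation, at 89.45 and 117.3 CPM (0.08). Of the genes for the ligase adaptors that read the codons printed above, Btrc was at -0.04 (83.53 and 100.5 CPM) and Fbxw11 at 0.63 (37.27 and 71.21 CPM).

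Among nuclear partners, Pygo1, a co-activator of β-catenin, gave 406 and 124 UMIs in the β class (-1.17) and was called in the PP class too (-1.11). Ctnnbip1, which encodes an inhibitor of the contact between β-catenin and TCF proteins, went from 49.53 to 27.45 CPM (9023 and 2772 UMIs, -1.16), the 1 repressor of 11 that was called. Tle5 (307.2 and 492.3 CPM, 0.37) and Ctbp1 (37.62 and 50.23 CPM, 0.11) were not. Crebbp, a co-activator, stood at 77.6 and 85.98 CPM (-0.16).

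Junction genes partner β-catenin in its other role. Jup, encoding plakoglobin, its closest relative, went from 16.49 to 55.18 CPM in the β class (1.43). Cdh2, encoding N-cadherin, went from 130.3 to 264.0 CPM with a centred log2 ratio of 0.71 (0.69 to 0.74), near that of Ctnnb1 (0.68). Ctnna1, encoding an α-catenin, stood at 65.7 and 99.11 CPM (0.29) and Cdh1, encoding E-cadherin, at 73.78 and 91.71 CPM (0.01).

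Of 14 target genes 8 were measured in the β class beside Axin2 as a member. Cd44 (14.84 and 70.33 CPM, 1.94) was called higher, and Lgr5 was called on the counts given above. Ccnd2 (555.3 and 414.2 CPM) was at -0.73, Ccnd1 (109.0 and 156.1 CPM) at 0.21, and Myc (227 and 86 UMIs) at -0.86. Axin2, Znrf3 (-0.04) and Rnf43 (-0.40), which are feedback inhibitors as well as targets, were not among the genes called. The list's median was -0.09, and its members thus did not share a direction.

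**Figure D5:**
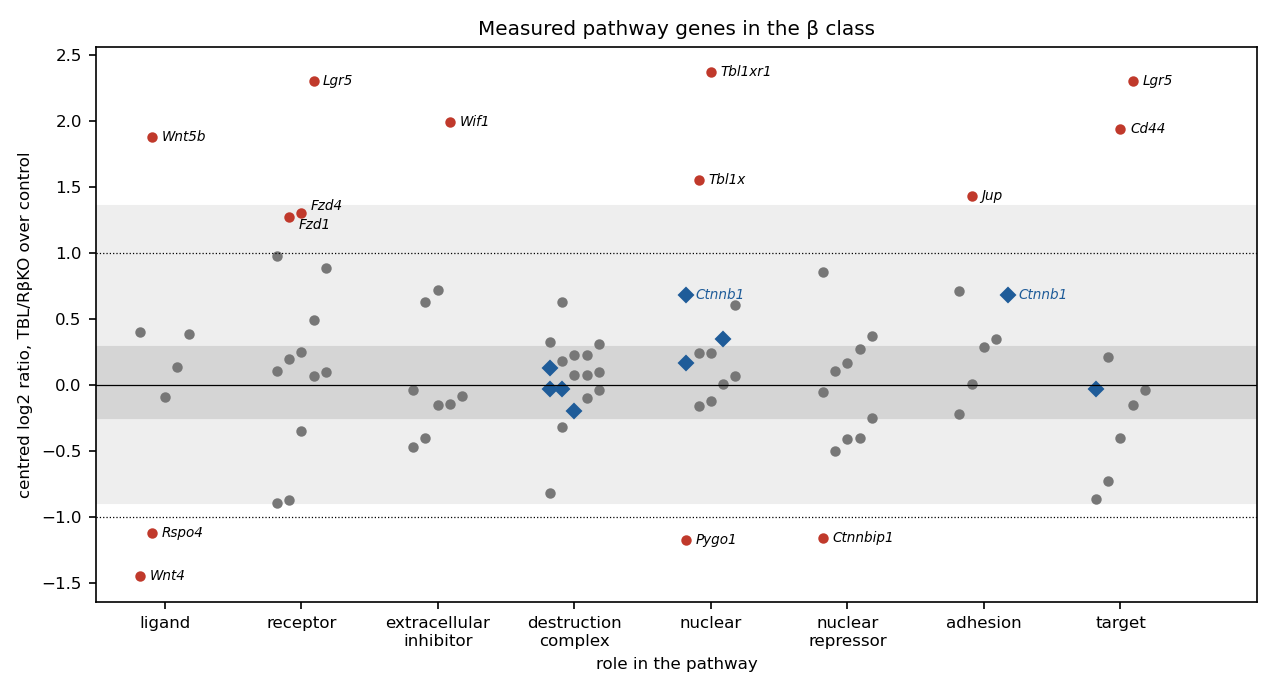
Centred log2 ratio (library labelled TBL/RβKO over control) of the measured pathway genes in the β class, by role. Blue diamonds are members, red points genes past 2-fold (dotted lines), and the dark and light bands hold the middle 50% and 90% of all measured genes. No member lay past 2-fold, Wnt4 (-1.45) was the lowest gene and Tbl1xr1 (2.37) the highest.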

How the data were processed

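Raw UMI counts per gene and barcode were deposited. Per the submitters' processing notes they came from Cell Ranger 7.1.0 on GRCm39. Counting used its standard settings, under which this version counts intronic reads too, so levels were not compared between genes. The 8 members and the pathway lists were chosen with earlier results of these data known. UMIs were summed per library and class with Python 3.11.15, numpy 2.4.6, scipy 1.17.1 and pandas 2.3.3, and figures were drawn with matplotlib 3.10.9. Levels are CPM with exact Poisson intervals. Ratios are log2 CPM ratios with a Clopper-Pearson interval on the share of 1 library in the count of both, centred on the class median over genes with 50 UMIs or more, and a centred value of 1 or more, or -1 or less, was called. The calculation was tested on simulated data. These intervals are exact, while a difference of centred ratios between classes has a normal interval from its counts. With no replicate there is no p-value. No doublet caller was run and no barcode was removed as a doublet, and an alternative left out barcodes with a second hormone. Detection shares were also taken at 5000 UMIs per barcode. Of the other pathway genes, those called in the β class and the 2 with most UMIs per role were named by rule. Lrp5, Btrc, Fbxw11, Ctnna1, Myc, Rnf43 and Ctbp1 are named beyond that rule and were chosen after their values were seen. The alternatives changed the limit on genes, the hormone threshold, scaling, the filter on low counts, weighting, free RNA and the fold of a call.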

Additional observations from a re-analysis of the deposited data

How the results depend on the processing

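No paired analysis was possible because each group is 1 library. For the counts of members and of pathway genes called in the 4 classes 12 alternatives were run, 1 of them (barcodes with non-endocrine markers left out) chosen after seeing the data. The members' counts in the δ class stayed at 0 under all of them, and no member or pathway gene called in a class changed sign there in the alternatives that measured it. Not every call held, as Fzd4 in the β class fell to 0.05 and Wnt5b in the PP class to 0.22. With barcodes under 6000 genes the members called were 1 in the β class (Tcf7l1, 1.08) and 0 in the PP class. In the PP class the count was also 0 without second-hormone barcodes, at a hormone threshold of 500 per 10000 and with a mean of 10 CPM, each of which left Tcf7l1 unmeasured. With no filter on low counts it was 1 in the α class and 2 in the PP class, Lef1 being added. With each barcode weighted equally it was 1 in the α class (Tcf7l1), and with a call at 1.5-fold it was 1, 1 and 3 in the β, α and PP classes. Pathway genes called in the β class numbered 13, and 7 with a mean of 10 CPM, 37 with no filter and 26 at 1.5-fold. In the α class they numbered 0, and 2 under 6000 genes, 21 with no filter, 6 at 1.5-fold and 1 without second-hormone barcodes, without non-endocrine barcodes, uncentred on either scale, with free RNA subtracted or weighted equally. There Wnt5b lay just under the limit (1.00 when rounded). In the δ class they numbered 1, and 2 without second-hormone barcodes, 22 with no filter and 4 at 1.5-fold. In the PP class they numbered 11, and 6 under 6000 genes or weighted equally, 5 without second-hormone barcodes or at a threshold of 500 per 10000, 7 uncentred on all UMIs or with a mean of 10 CPM, and 23 with no filter.

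Over 11 alternatives the centred log2 ratio of Ctnnb1 in the β class ran from 0.46 to 0.99 and in the PP class from 0.52 to 0.96, always above 0, and in the α class from -0.01 to 0.22. In the β class Tcf7l2 ran from -0.03 to 0.48, Gsk3b from -0.05 to 0.44, Axin1 from -0.38 to 0.11, Apc from -0.20 to 0.28 and Axin2 from -0.47 to 0.27, so the sign of these 5 depends on the scaling or on which barcodes are counted. The cause was not tested. Depth limits Lef1 and Tcf7l1 most, and with 1 library per group no value can be set against the spread between animals.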
